A study of Homo sapiens with 3 samples.

Results

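TNF mRNA encodes tumour necrosis factor, an inflammatory cytokine made chiefly by monocytes and macrophages. Its counts and peaks were taken from an eCLIP experiment on DDX6 in MOLM-13 cells, a monocytic acute myeloid leukaemia line. TNF was 1 of 36817 gene identifiers with counts (ENSG00000232810.3), and no other identifier carried its symbol. It held 38 of 123298 lines in the peak list of IP replicate 1, 19 of 62411 in that of IP replicate 2 and 26 of 1587 in the list of reproducible peaks. TNF was chosen by its own readout, since its reads in the DDX6 immunoprecipitation (IP) stood far above its input reads in every exonic region and in these peak lists. Those values are therefore given as a description, with no test.

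The groups were DDX6 IP, with 2 libraries, and input, with 1 library. All 3 came from MOLM-13 cells cross-linked with ultraviolet light and digested with RNase I, and only the IP libraries were enriched with an antibody to DDX6. The labels name no drug, gene edit or other treatment for either group. They do not say whether the IP replicates came from separate cultures, so their spread may be technical. All values come from 1 cell line, and the single input has no replicate. DDX6 IP replicate 1 had 4643494 counted reads, DDX6 IP replicate 2 had 1244213 and the input had 7807540. Reads in exons made up 67.6% and 62.6% of the IP libraries and 30.7% of the input. Of 16 myeloid markers, 14 had at least 10 exonic reads in the input, among them LYZ (1875 reads) and MPO (1261 reads), while CD14 had 1 and KIT 0. Together the myeloid markers stood at 1871 and 2137 CPM (read counts scaled to a fixed total of exonic reads) in the IP libraries and 2564 CPM in the input. Markers of B cells, red cells and epithelia had fewer than 10 input reads each, and of the T cell and fibroblast markers only CD3D (15 reads) and COL1A1 (27 reads) had more.

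DDX6 is an RNA helicase of P-bodies, cytoplasmic granules that hold messenger RNA outside translation. It works with the decapping enzymes and the CCR4-NOT deadenylase and is linked to both translational repression and decay of messages. TNF mRNA is a classic short-lived message. Proteins such as tristetraprolin (ZFP36) bind AU-rich elements in its 3'UTR and recruit the deadenylase, and the stem-loop binding Roquin proteins (RC3H1 and RC3H2) also promote its decay. Translation yields a membrane-bound precursor that the protease ADAM17 releases, and the cytokine signals through the receptors TNFRSF1A and TNFRSF1B to NF-kappaB and cell death pathways.

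TNF took up a much larger part of the DDX6 IP libraries than of the input. In DDX6 IP replicate 1, 14732 reads fell on TNF, or 0.317% of counted reads (95% Clopper-Pearson interval 0.312 to 0.322%). DDX6 IP replicate 2 had 3057 TNF reads, or 0.246% (0.237 to 0.255%), and the input had 886, or 0.0113% (0.0106 to 0.0121%). The intervals of the IP libraries lay apart from each other as well as from that of the input. These intervals cover counting error only. The IP and input libraries alike come from bulk cells, in which the number of cells with TNF mRNA and the amount per cell cannot be told apart. The gap between the IP libraries was small beside their distance from the input. Scaled by TMM, which sets the exonic libraries to a common centre, TNF stood at 4429 and 3722 CPM in the IP libraries, against 248 CPM in the input. The IP mean was 4076 ± 499.7 CPM (SD, n = 2). Ranked by the log2 fold over input, TNF was gene 7 of 10392 in IP replicate 1 and gene 25 in IP replicate 2, with a prior count of 2 added to each library. By the fold fitted over both it was gene 27. With libraries scaled by size alone it was again gene 27, under DESeq2 gene 32, and with at least 30 reads gene 13 of 7977. It was gene 698 of 26782 without the read filter, which lets in genes with very few reads. With intronic reads included it was gene 53 of 11953.

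Read counts were then split by the part of the gene they fell in. The 5'UTR of TNF held 1977 and 378 reads in the DDX6 IP libraries, against 42 in the input. In the coding sequence there were 5681 and 1307 reads in the IP libraries and 189 in the input. The 3'UTR held 6524 and 1265 reads in the IP libraries and 318 in the input. It was the part with most TNF reads in IP replicate 1, whereas the coding sequence was in IP replicate 2 and the introns were in the input. In every exonic part each IP library held more TNF reads than the input, although the input was the most deeply sequenced. TNF introns held 550 and 107 reads in the IP libraries, against 337 in the input. Of these, the reads near 5' splice sites numbered 141 and 34 in the IP libraries and 91 in the input, and those near 3' splice sites 228 and 46 in the IP libraries and 120 in the input. A further 181 and 27 intronic reads in the IP libraries and 126 in the input lay elsewhere near exons. The class for reads deep in an intron held 0 in every library. Between TNF peak lines the widest gap was 606 bases, and whether any TNF base could fall in that class was not tested.

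**Figure D1:**
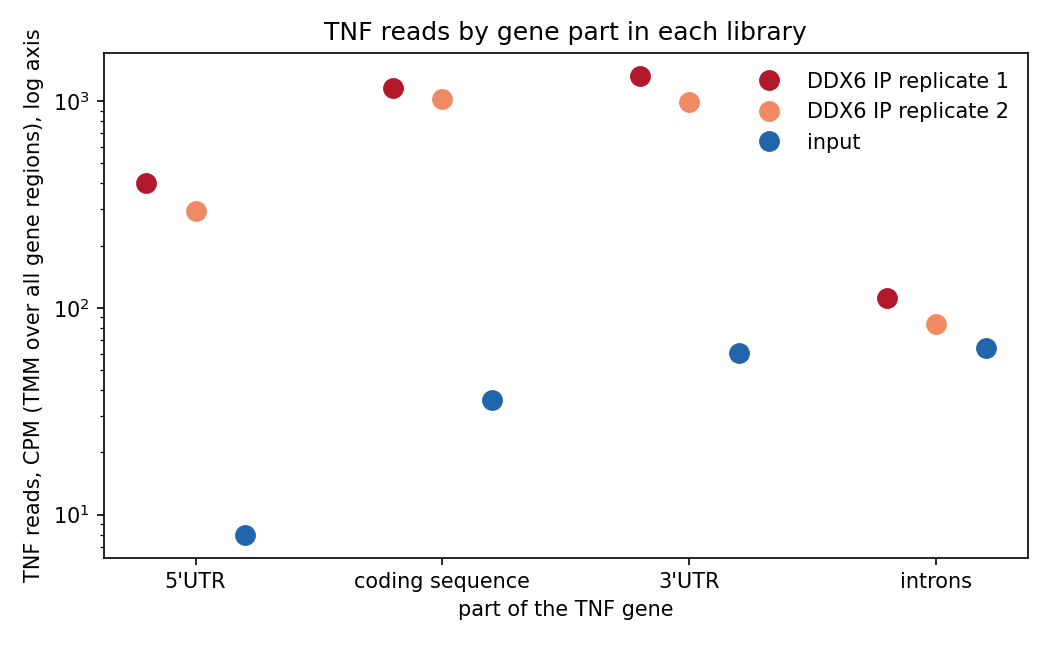
TNF reads in each part of the gene, in CPM scaled by TMM over all gene regions, on a log axis, with 1 point per library. In the 5'UTR, coding sequence and 3'UTR both DDX6 IP libraries lie far above the input, whereas in introns the IP libraries stood at 112 and 83.6 CPM and the input at 64.2 CPM.

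On the scale fitted over all gene regions, the intronic level of TNF was 97.6 ± 19.8 CPM in the DDX6 IP (SD, n = 2) and 64.2 CPM in the input. That is a log2 fold of 0.62, or 1.54-fold, with 0.79 in IP replicate 1 and 0.38 in IP replicate 2. The median over the introns of 9153 genes was -1.93, and 96.0% of them had a lower fold than TNF introns. Across all genes, the introns of 2.57% were called higher in the DDX6 IP and those of 83% lower. A call means an adjusted p under 0.05 (Benjamini-Hochberg) in the quasi-likelihood test of edgeR. TNF introns therefore ranked high among introns, at 312 and 380 of 9153 in the IP libraries, while their fold stayed far below those of TNF exons. Whether the intronic reads come from pre-mRNA bound by DDX6 or from other RNA was not tested.

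**Figure D2:**
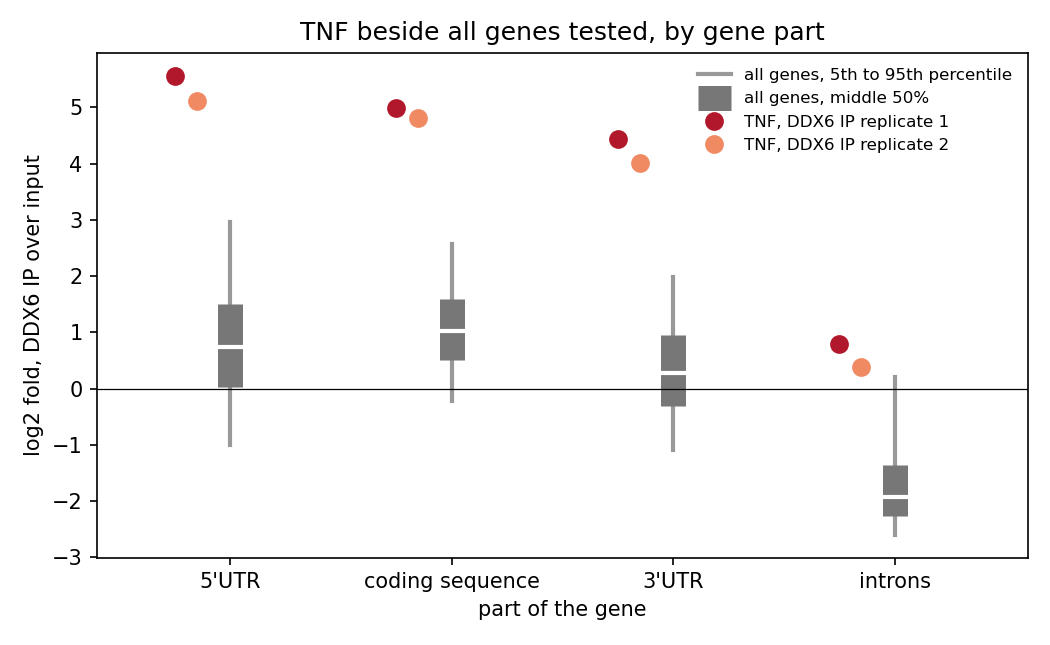
Log2 fold of DDX6 IP over input for TNF in each IP library (points) beside all genes with enough reads in that gene part (box, middle 50%; white line, median; thin line, 5th to 95th percentile). TNF lies above the 95th percentile of genes in each exonic part and in introns.

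Across gene parts, the exonic folds of TNF were ordered the same way in both IP libraries. The 5'UTR had log2 folds of 5.56 and 5.12 in IP replicates 1 and 2. The coding sequence came next, at 4.98 and 4.81. The 3'UTR followed at 4.44 and 4.02, the highest of 7194 3'UTRs in each IP library on this scale with its prior count of 2, and the third highest by the fold fitted over both. The medians over all genes were 0.74 for 5'UTRs, 1.02 for coding sequences and 0.28 for 3'UTRs. For scale, 33.2% of 5'UTRs, 51.2% of coding sequences and 23.9% of 3'UTRs were called higher in the DDX6 IP, and 4.49%, 0.208% and 6.83% of them lower. The 3 parts of TNF share their reads' source, and the 5'UTR rests on only 42 input reads.

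Scaling of the libraries cancels in a difference between 2 parts of TNF. The coding sequence of TNF exceeded its 3'UTR by 0.66 on the log2 scale, with 0.54 and 0.79 in the IP libraries. Over 6552 genes the median of that difference was 0.83, so the TNF value lay within the middle 50% of genes (0.36 to 1.28). The 5'UTR exceeded the coding sequence by 0.53, against a median of -0.27 over 1971 genes, of which 79.8% lay below TNF. The coding sequence exceeded the introns by 4.29 and the 3'UTR exceeded them by 3.63. Both differences were larger than in most genes, where the medians were 3.04 over 7291 genes and 2.27 over 6355 genes. TNF thus had a usual gap between coding sequence and 3'UTR and a wide gap between exons and introns.

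The distribution of TNF reads over the gene differed between the IP and the input. Introns held 3.73% of TNF reads in DDX6 IP replicate 1 (3.43 to 4.05%) and 3.50% in replicate 2 (2.88 to 4.21%), against 38.0% in the input (34.8 to 41.3%). Over all protein-coding genes the intronic share was 26.7% and 31.4% in the IP libraries and 73.6% in the input. The 5'UTR took 13.4% and 12.4% of TNF reads in the IP libraries, against 4.74% in the input. For the coding sequence the shares were 38.6% and 42.8% in the IP libraries and 21.3% in the input, and for the 3'UTR 44.3% and 41.4% in the IP libraries and 35.9% in the input. With introns left out, the 3'UTR share was lower in the DDX6 IP than in the input. It was then 46.0% and 42.9% of exonic TNF reads in the IP libraries and 57.9% in the input (53.7 to 62.1%). The 5'UTR share, at 13.9% and 12.8% in the IP libraries, stayed above the input's 7.65%. The coding sequence share, at 40.1% and 44.3%, also stayed above the input's 34.4%, whose interval of 30.5 to 38.6% lay below both IP intervals.

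**Figure D3:**
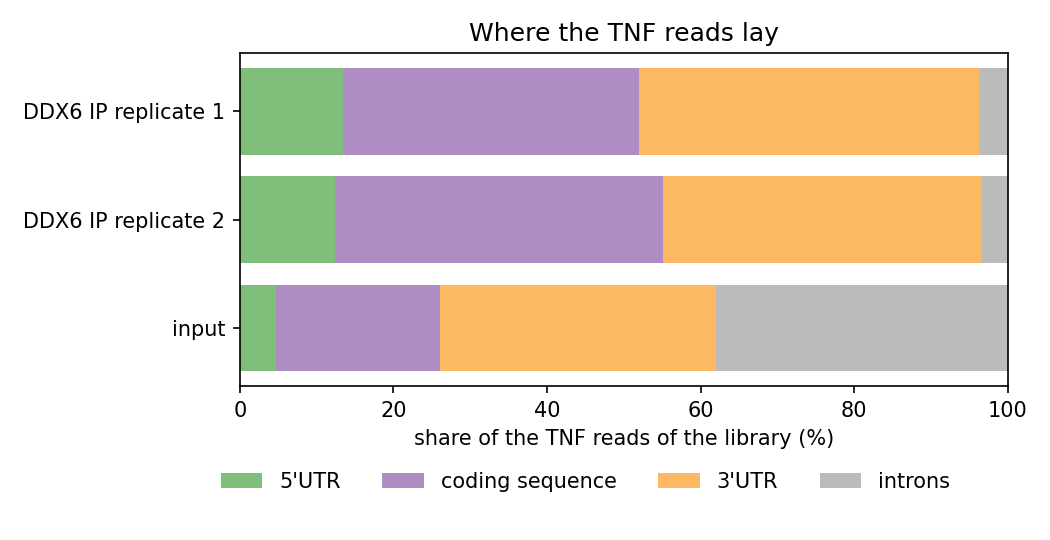
Share of the TNF reads of each library (%) that fell in the 5'UTR, the coding sequence, the 3'UTR and the introns. The intronic part is 3.73% and 3.50% in the DDX6 IP libraries and 38.0% in the input.

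TNF alone made up a visible part of all 5'UTR reads of the IP libraries. It took 1.25% of them in IP replicate 1 and 0.782% in IP replicate 2, against 0.0377% in the input. Of all 3'UTR reads it took 0.623% and 0.550% in the IP libraries and 0.0396% in the input. Its share of coding sequence reads was 0.353% and 0.328% in the IP libraries and 0.0241% in the input. Of these 3 shares, that of 5'UTR reads differed most between the IP libraries.

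Peak lists gave the position of the signal within the gene. A peak line is a short interval with the authors' own log2 fold of IP over input and -log10 p, both against the same input library. All 38 TNF lines of IP replicate 1 and all 19 of IP replicate 2 reached a log2 fold of 3 and a -log10 p of 3, as did 11.5% and 12.9% of all lines in these lists. Every TNF line in both lists, and all 26 in the reproducible list, also sat at 400, the highest -log10 p the lists hold. Only 0.419% of all lines in IP replicate 1 and 0.312% in IP replicate 2 did so. By number of lines at that limit, TNF came first in each list. It supplied 38 of 517 such lines in IP replicate 1, where the next gene, RPL37A, a ribosomal protein gene, had 29. In IP replicate 2 it supplied 19 of 195, with RPL37A next at 17, and in the reproducible list 26 of 140, with the next gene at 25. Several lines can belong to 1 continuous stretch, so these numbers count lines and not separate binding sites. By bases at that limit TNF was first of 61 genes in IP replicate 2, with 617 bases, but place 7 of 97 in IP replicate 1, where 6 genes covered more than its 612 bases. No line of another gene, and none on the opposite strand, fell between the first and last TNF line. In the annotation that the authors attached to each TNF line, 6 long non-coding RNAs were also listed beside TNF.

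TNF lines covered 612 bases in IP replicate 1 and 617 in IP replicate 2. On build hg19 they ran on the plus strand of chromosome 6 from 31543439 to 31546075. Lines that crossed the region boundaries place the first coding base at 31543519 and the last at 31545315. By the authors' region labels, IP replicate 1 had 1 line in the 5'UTR, 20 in the coding sequence and 17 in the 3'UTR. IP replicate 2 had 1 line in the 5'UTR, 14 in the coding sequence and 4 in the 3'UTR. The reproducible list held 1, 17 and 8 lines in these parts, and no list had an intronic TNF line. Lines that crossed the first or last coding base carry the coding sequence label. By position, TNF lines of IP replicates 1 and 2 covered 56 and 63 bases of the 5'UTR. They covered 249 and 306 bases of the coding sequence and 307 and 248 of the 3'UTR. Log2 folds ranged over 4.73 to 6.70 in IP replicate 1 (median 5.60), 4.31 to 5.68 in IP replicate 2 (median 5.09) and 4.57 to 5.90 in the reproducible list (median 5.41). By comparison, the median over all lines that reached both thresholds was 3.53 in IP replicate 1 and 3.64 in IP replicate 2.

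**Figure D4:**
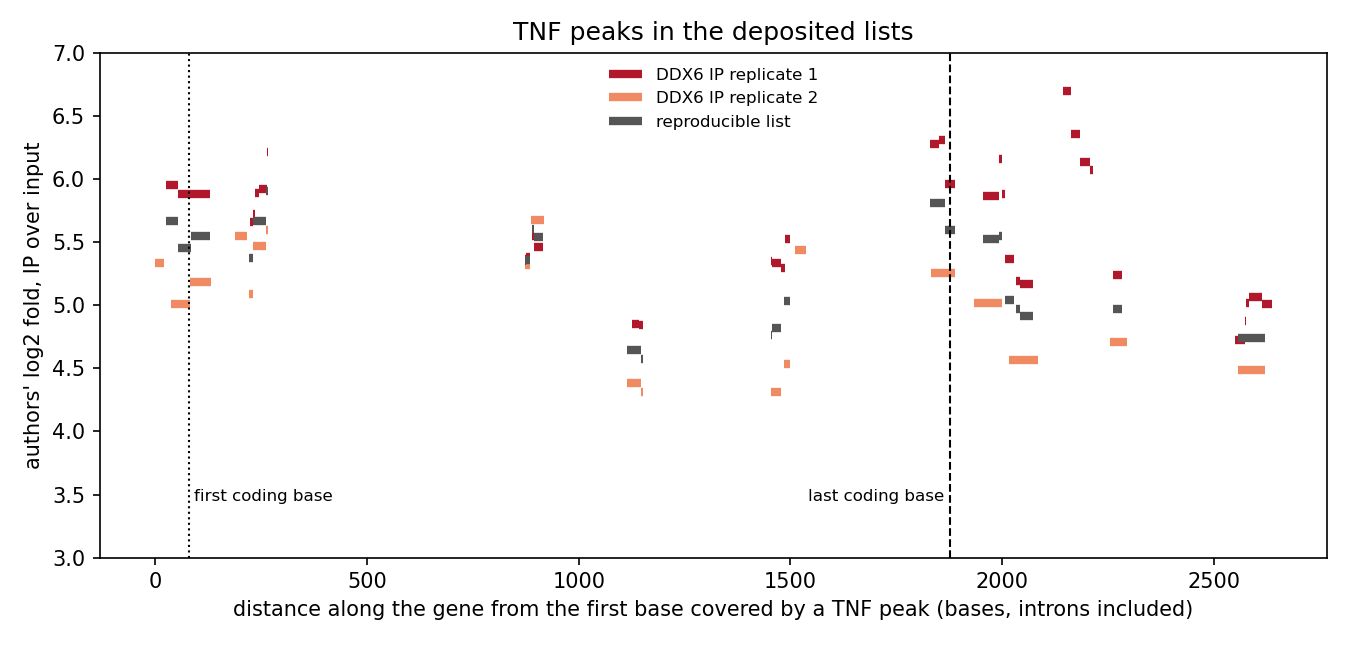
TNF peak lines of the 3 deposited lists, by distance from the first base covered by a TNF line (bases, introns included) and by the authors' log2 fold of DDX6 IP over input. Vertical lines mark the first and last coding base, and the 4 lines of IP replicate 1 that begin at 2143 bases, in the 3'UTR, have no line of IP replicate 2 below them.

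Lines less than 150 bases apart fell into 6 blocks. The first, from 31543439 to 31543704, covered the end of the 5'UTR and the start of the coding sequence. Within it a line crossed the first coding base in each list, with log2 folds of 5.88 in IP replicate 1 and 5.01 in IP replicate 2. Coding sequence alone filled the second block (31544311 to 31544355), the third (31544554 to 31544591) and the fourth (31544893 to 31544974). The third had folds of 4.84 to 4.85 in IP replicate 1 and 4.31 to 4.38 in IP replicate 2. The fifth block, from 31545270 to 31545734, spanned 465 bases around the stop codon and held 15 lines of IP replicate 1, 4 of IP replicate 2 and 10 reproducible lines. A line across the last coding base had a log2 fold of 5.96 in IP replicate 1 and 5.25 in IP replicate 2. After a gap of 255 bases of 3'UTR with no line, the sixth block ran from 31545990 to 31546075 at 4.73 to 5.06 in IP replicate 1 and 4.49 in IP replicate 2. By their strongest lines, the third and sixth blocks were the lowest of the 6 in both IP libraries.

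The lists overlapped over 470 bases, which is 76.8% of the bases of IP replicate 1 and 76.2% of those of IP replicate 2. In the coding sequence 234 bases were shared, or 94.0% of those in IP replicate 1. In the 3'UTR 193 were shared, or 62.9% of those in IP replicate 1. Of the bases of IP replicate 2, 76.5% in the coding sequence and 77.8% in the 3'UTR were shared, so the parts differ only from the side of IP replicate 1. The strongest TNF line of IP replicate 1 was not shared. It lay in the 3'UTR from 31545582 to 31545601, with a log2 fold of 6.70 (104-fold). That line opened a run of 4 adjoining lines over 73 bases, to 31545654, with folds from 6.08 to 6.70. The run began at base 267 of the 3'UTR and had no line of any gene in IP replicate 2. In IP replicate 2 the strongest line was in the coding sequence, from 31544326 to 31544355, with a log2 fold of 5.68 (51.2-fold), and IP replicate 1 had lines there too. Lines found only in IP replicate 2 numbered 3. They covered 72 bases, at 31543439 to 31543458 in the 5'UTR and at 31543627 to 31543654 and 31544951 to 31544974 in the coding sequence. IP replicate 2 had fewer counted reads than IP replicate 1, and the part of depth in these differences was not tested.

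At bases shared by both lists, the fold was usually higher in IP replicate 1. It was higher at 444 of 470 bases (94.5%), with a median difference of 0.69 on the log2 scale. Among 36 overlapping pairs of TNF lines, 94.4% were higher in IP replicate 1, with a median difference of 0.57. Over 3401 such pairs of lines from all genes, 49.0% were higher in IP replicate 1 and the median difference was -0.01. The gap between replicates at TNF peaks thus ran in the same direction as that of the TNF counts, where the exonic log2 fold was 4.15 in IP replicate 1 and 3.90 in IP replicate 2. With 2 IP libraries this difference has no test.

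Genes that act on TNF mRNA were read from the same fit over all exonic counts. Of 10392 genes, 16.7% had a call of higher in the DDX6 IP and 11.4% a call of lower in that fit. The single input had to be taken to vary as the IP libraries do, and 1 residual degree of freedom was left. The spread used for each gene was therefore mostly borrowed from all genes, with a weight of 75.8 degrees of freedom. In the fit over gene regions it was borrowed wholly. The adjusted p values thus do not measure the spread of each gene on its own. Of 40 regulators of TNF mRNA, 39 were tested. The mRNAs of 9 were higher (23.1%) and those of 4 were lower (10.3%), and the median log2 fold was 0.27, against 0.00 over all genes. ZFP36, which encodes tristetraprolin, had 5035 and 1300 exonic reads in the IP libraries and 483 in the input. Its log2 fold was 2.88 (edgeR adjusted p = 3.80e-09), and 19 reproducible peak lines fell on it. XRN1, the exonuclease that degrades decapped messages, had 1137 and 245 reads in the IP libraries and 260 in the input (log2 fold 1.50, edgeR adjusted p = 7.24e-06). ZC3H12C, a ribonuclease of the Regnase family, had 569 and 127 reads in the IP libraries and 144 in the input (1.38, edgeR adjusted p = 3.82e-05). GIGYF2, a translational repressor that binds tristetraprolin, had 530 and 104 reads in the IP libraries and 145 in the input (1.20, edgeR adjusted p = 0.000349). With intronic reads included, ZC3H12C lost its call and GIGYF2 was called lower, at -0.54 (edgeR adjusted p = 0.0474). The other members called higher were the deadenylase scaffold CNOT1, the decapping activator DCP1A, the Argonaute protein AGO2, the RNA-binding protein FXR1 and the kinase MAP3K8, with log2 folds from 0.90 to 1.39.

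Lower exonic levels in the DDX6 IP were called for mRNAs of 4 RNA-binding proteins. HNRNPAB had 352 and 92 reads in the IP libraries and 447 in the input (log2 fold -0.85, edgeR adjusted p = 0.00507). CELF1, which binds GU-rich elements, had 614 and 147 reads in the IP libraries and 712 in the input (-0.77, edgeR adjusted p = 0.00939). HNRNPA1 and KHSRP, a protein that promotes decay of AU-rich messages, had log2 folds of -0.81 and -0.64 (edgeR adjusted p = 0.0250 and 0.0480). The calls differed between the parts of these genes. The 3'UTRs of HNRNPAB, HNRNPA1 and KHSRP were called lower, at -0.84, -0.70 and -0.84 (edgeR adjusted p = 0.0241, 0.0484 and 0.0133), and so was the 5'UTR of CELF1, at -1.29 (edgeR adjusted p = 0.0243). The coding sequences of CELF1 and KHSRP were called higher, at 1.50 and 0.72 (edgeR adjusted p = 0.000481 and 0.0492). Over all genes, 51.2% of coding sequences were called higher, and 6.83% of 3'UTRs and 4.49% of 5'UTRs were called lower. Genes with both kinds of call were not counted. The median log2 fold was 1.02 over all coding sequences and 0.28 over all 3'UTRs. For coding sequences, KHSRP, HNRNPAB (0.23) and HNRNPA1 (0.20) lay below that median and CELF1 above it. All 4 of the exonic calls were lost under DESeq2 and without the read filter. All 4 also turned to log2 folds above 0 when libraries were scaled by their size alone. ELAVL1 (HuR), which stabilises AU-rich messages, had 465 and 127 reads in the IP libraries and 324 in the input, with a log2 fold of 0.05 (edgeR adjusted p = 0.907). Its coding sequence was called higher, at 1.42 (edgeR adjusted p = 0.00110), and with library size alone its exonic reads were too, at 1.28 (edgeR adjusted p = 0.000245). HNRNPD (AUF1), another AU-rich element binder, had 903 and 186 reads in the IP libraries and 851 in the input, with -0.56 (edgeR adjusted p = 0.0792).

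Among 66 genes of TNF processing and receptor signalling, 62 were tested. Of these, 9 were higher (14.5%, against 16.7% of all genes) and 4 lower (6.45%, against 11.4%). Their median log2 fold was 0.12. The highest folds belonged to inhibitors of NF-kappaB. NFKBIA, which encodes the inhibitor IkappaB-alpha, had 703 and 155 reads in the IP libraries and 87 in the input (log2 fold 2.41, edgeR adjusted p = 3.15e-10). TNFAIP3, the ubiquitin-editing enzyme A20, had 1491 and 311 reads in the IP libraries and 207 in the input (2.20, edgeR adjusted p = 5.27e-09). TAB2 and TRAF6, adaptors on the way to the TAK1 kinase, had log2 folds of 1.57 and 1.18 (edgeR adjusted p = 3.89e-06 and 0.000875). Lower levels were called for the deubiquitinase OTULIN (-1.07, edgeR adjusted p = 0.00128) and for SPPL2B, a protease that can cut the TNF membrane stub (-1.13, 0.00175). The same held for the receptor adaptor TRADD (-2.30, 0.00934) and the kinase IKBKB (-0.66, 0.0499). TRADD rests on 10 and 0 reads in the IP libraries and 26 in the input. Under DESeq2, 3 members of the list were called higher, TRAF6 not among them, and 0 lower, with no adjusted p for TRADD. With library size alone, OTULIN, SPPL2B and IKBKB turned above 0 and TRADD lost its call. With intronic reads included TAB2 and OTULIN lost their calls. SPPL2B lost its call there too, at a log2 fold of 0.0089 (edgeR adjusted p = 0.985). IKBKB, which passed the threshold narrowly, also lost its call without the read filter and at 30 reads (edgeR adjusted p = 0.221 and 0.0502).

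For the receptors and the protease that releases TNF, no call was made on exonic reads in that fit. TNFRSF1A had 294 and 71 exonic reads in the DDX6 IP libraries and 190 in the input (log2 fold 0.08, edgeR adjusted p = 0.858). TNFRSF1B had 277 and 96 reads in the IP libraries and 288 in the input (-0.37, edgeR adjusted p = 0.296). ADAM17 had 280 and 60 reads in the IP libraries and 216 in the input (-0.24, edgeR adjusted p = 0.540). By gene part, the coding sequence of each was called higher, as for 51.2% of coding sequences. Their log2 folds were 0.91 for TNFRSF1A, 1.04 for TNFRSF1B and 0.94 for ADAM17 (edgeR adjusted p = 0.0272, 0.0242 and 0.0221). These lay near the median of 1.02 over all coding sequences. The 5'UTR of TNFRSF1A was also called higher, at 2.80 (edgeR adjusted p = 0.000291), on 37 and 12 reads in the IP libraries and 6 in the input. None of their 3'UTRs was called. With library size alone the exonic reads of all 3 were called higher, at 1.32, 0.86 and 0.997 (edgeR adjusted p = 0.000178, 0.0118 and 0.00412), and with intronic reads included ADAM17 was called lower, at -0.66 (edgeR adjusted p = 0.0147).

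Only part of the wider family of TNF ligands and receptors could be tested. TNFSF12, TNFSF13, TNFSF18, CD40LG, CD27 and TNFRSF17 matched no identifier in the counts, so their reads are not known. Of 46 members, 30 had reads under a matched symbol and 16 were tested, with a median log2 fold of 0.25. Those called were 3 higher (18.8%, against 16.7% of all genes) and 1 lower (6.25%, against 11.4%). TNFRSF10B, a receptor for the death ligand TRAIL, had 995 and 263 reads in the IP libraries and 277 in the input (log2 fold 1.35, edgeR adjusted p = 3.68e-05). TNFSF9, the ligand of the costimulatory receptor TNFRSF9, had 243 and 55 reads in the IP libraries and 53 in the input (1.61, edgeR adjusted p = 0.000122). LTBR, the lymphotoxin beta receptor, was called higher (0.99, edgeR adjusted p = 0.0477) and the receptor RELT lower (-0.91, edgeR adjusted p = 0.0194). Neither call was made under DESeq2 or without the read filter, and RELT turned to 0.33 with library size alone. No read in any library fell on exons of LTA, the ligand gene next to TNF. LTB, on its other side, had 19 and 5 reads in the IP libraries and 26 in the input (-0.95, edgeR adjusted p = 0.242). Of these 3 adjacent ligand genes, TNF alone had more exonic reads in the DDX6 IP libraries than in the input.

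Other genes near TNF on chromosome 6 did not share its fold. MCCD1 and ABHD16A matched no identifier in the counts. Of 17 listed, 14 had reads and 10 were tested. Those called were 2 higher (20%, against 16.7% of all genes) and 1 lower (10%, against 11.4%). The median log2 fold was -0.09. PRRC2A, which encodes a large RNA-binding protein, had 2698 and 790 reads in the IP libraries and 857 in the input (1.24, edgeR adjusted p = 0.00146). GPANK1 had 179 and 41 reads in the IP libraries and 53 in the input (1.18, edgeR adjusted p = 0.00697). LST1, a leukocyte gene, had 267 and 68 reads in the IP libraries and 292 in the input (-0.65, edgeR adjusted p = 0.0474). The calls of GPANK1 and LST1 were lost under DESeq2, and LST1 had a log2 fold of 0.59 when libraries were scaled by size alone.

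**Figure D5:**
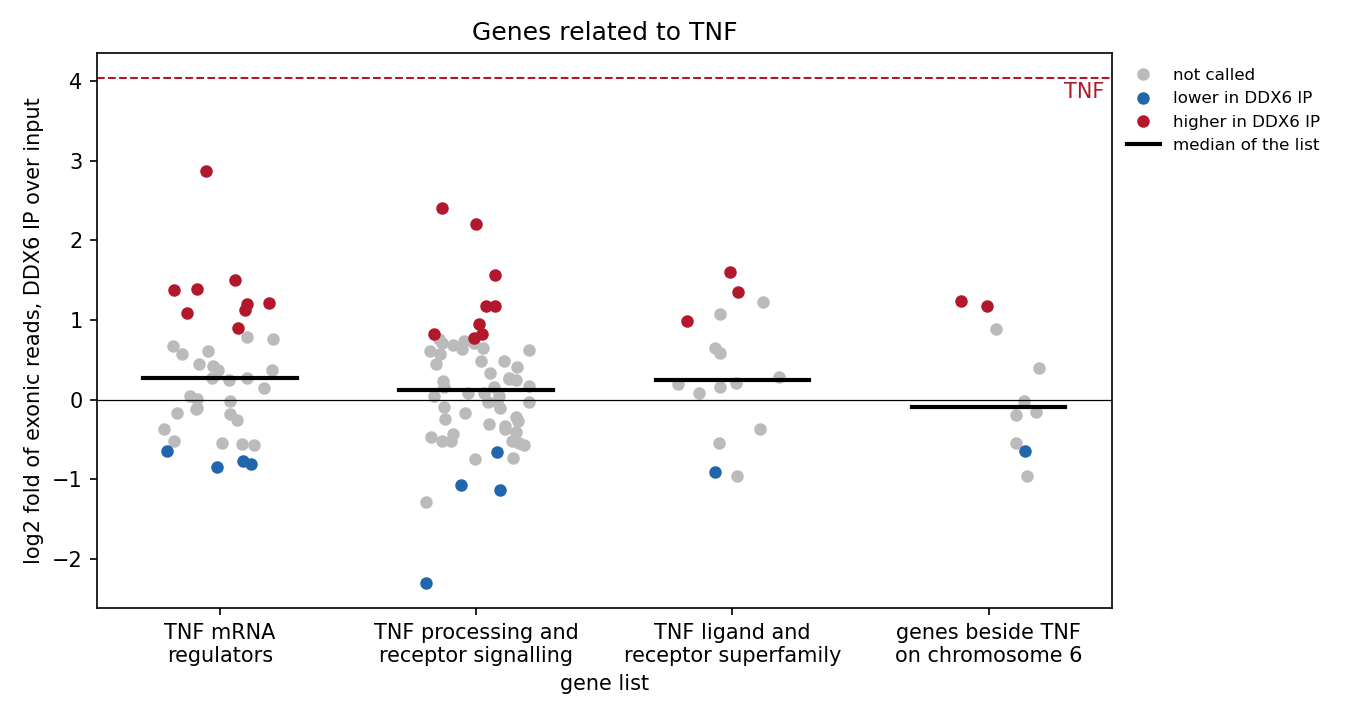
Log2 fold of exonic reads, DDX6 IP over input, for the tested genes of the 4 lists, coloured by the edgeR call, with the median of each list as a bar and TNF as a dashed line at 4.04. The highest member of any list, ZFP36, lies at 2.88.

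Likeness to TNF was measured as the Euclidean distance over 6 log2 folds, those of the 5'UTR, coding sequence and 3'UTR in each IP library. It covered 888 other genes with at least 10 reads in each of these parts in both IP libraries. That filter asks nothing of the input, so genes can enter through the libraries in which they are high, and the order is a description only. The nearest was IER3, an immediate early gene that responds to stress and TNF, at a distance of 1.23, and next came CXCL8, the neutrophil chemokine interleukin 8, at 1.62. The median distance was 9.46. IER3 had 3'UTR log2 folds of 3.79 and 3.21 in the IP libraries, and CXCL8 had 3.41 and 2.95, both below those of TNF. Their 5'UTRs rest on 5 and 7 input reads. They were followed by the zinc finger genes ZNF507 (3.12) and ZNF92 (3.40) and by NFIL3 (4.03), which encodes a transcriptional repressor. The 5'UTRs of ZNF507 and ZNF92 had only 2 and 3 input reads, so their distances depend on the prior count of 2. With at least 30 reads required, 170 genes remained and IER3 and CXCL8 were again the nearest, followed by CCL2, ZNF217 and RESF1. By Pearson correlation of the 6 folds instead, AMD1 came first and CXCL8 second, and IER3 stood at place 25.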

How the data were processed

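Per the labels, DDX6 eCLIP libraries were made from ultraviolet cross-linked, RNase I treated MOLM-13 cells. UMI-tools, cutadapt, STAR, SAMtools and build hg19 are named in the submitters' processing notes. For the counter, its treatment of strand, the annotation and the peak caller, nothing is given in the sources used here. Read counts per gene and region are as the authors deposited them. Their deposited peak lists give a -log10 p, capped at 400 in the values, and a log2 fold against input. How replicates were combined into the reproducible list is not known.

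Exonic counts per gene are the sum of 5'UTR, coding sequence, 3'UTR and non-coding exon columns. Genes that reached 10 reads in 2 or more of the 3 libraries were fitted with edgeR 4.0.16 (TMM, quasi-likelihood test, Benjamini-Hochberg adjusted p under 0.05). Regions were fitted likewise in 1 fit of 28825 rows. Intergenic and total lines were left out, and intergenic reads were 4.05% and 3.78% of the IP libraries and 2.63% of the input. Folds per library used a prior count of 2. The spread came from the 2 IP libraries, with a coefficient of variation of 16.5% between them over genes. Shares have exact Clopper-Pearson intervals at 95%. Symbols came from a table that matched 28576 of 29754 Ensembl identifiers, and 163 more came from the peak lists.

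TNF and the gene lists were chosen with earlier results of these data known. Named list genes are TNF, the 4 called members of each list with the smallest p in each direction, and TNFRSF1A, TNFRSF1B, ADAM17, ZFP36, ELAVL1, HNRNPD, KHSRP, LTA and LTB. The 5 genes nearest to TNF by distance are also named. Other called regulators and the genes of the stricter likeness filter were named after their values were seen. Alternatives were DESeq2 1.42.0, library size alone, no read filter, at least 30 reads, intronic reads included, a prior count of 0.5, other peak thresholds and leaving out each IP library. 1 listed regulator is not analysed here.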

Additional observations from a re-analysis of the deposited data

How the results depend on the processing

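TNF exons stayed far above the input, and TNF introns above it, under every alternative run. Relative to the median gene its log2 fold was 4.03 over exons, 3.81 over exons without the read filter and 4.51 over exons and introns together. Scaling by library size alone shifted the median gene by 1.24. It gave TNF 5.27 over exons, 6.08 in the 5'UTR, 5.55 in the coding sequence, 4.89 in the 3'UTR and 1.26 in introns. With intronic reads added to the exonic ones TNF had 4.53. The coding sequence moved to 4.62 without the read filter and 5.11 at 30 reads. Leaving out 1 IP library gave 5.12 to 5.56 for the 5'UTR. With exonic reads only, the log2 ratio of IP share to input share was 0.81 for the 5'UTR, 0.29 for the coding sequence and -0.38 for the 3'UTR, the last a reversal from 0.26. Peak counts were the same at the other thresholds, and 16 of 19 lines of IP replicate 2 overlapped a line of IP replicate 1 at either overlap rule.

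Over all genes, the number called higher was 6990 with library size alone, 679 with DESeq2 and 1100 at 30 reads, and the number lower 141 with library size alone, 256 with DESeq2 and 2243 with intronic reads included. For regions, 11607 and 3390 were higher with library size alone and DESeq2, and 5907 lower with DESeq2. With library size alone, 34 regulators, 48 signalling genes, 13 superfamily genes and 7 neighbours were called higher and 0 of each list lower, with medians of 1.51, 1.35, 1.49 and 1.15, the last a reversal. DESeq2 called 3 signalling genes and 1 neighbour higher and 0 of any list lower, with a neighbour median of -0.10. Without the read filter 0 regulators, superfamily genes and neighbours were lower, and medians were 0.17 for signalling, 0.50 for the superfamily and -0.0700 for neighbours. At 30 reads 2 signalling genes were lower and the neighbour median was -0.10. With intronic reads included 7 superfamily genes and 4 neighbours were higher, and 7 regulators, 18 signalling genes and 0 neighbours lower. Medians were then 0.45 for the superfamily and, reversed, -0.11 for signalling and 0.59 for neighbours. Leaving out 1 IP library gave medians of 0.15 to 0.32 for regulators, 0.15 to 0.16 for signalling and -0.0320 to -0.0175 for neighbours. By Pearson correlation 1 of the 5 genes most like TNF was shared (CXCL8, not IER3), and at 30 reads 2 were (IER3 and CXCL8).

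Under library size alone the log2 folds of named genes with main values below 0 turned positive: HNRNPAB 0.39, CELF1 0.46, HNRNPA1 0.43, KHSRP 0.59, OTULIN 0.16, SPPL2B 0.11, IKBKB 0.58, RELT 0.33, LST1 0.59, TNFRSF1B 0.86, ADAM17 0.997, HNRNPD 0.67 and LTB 0.29, with TRADD the exception at -1.05. Intronic reads included reversed GIGYF2 to -0.54, HNRNPAB to 0.0256, HNRNPA1 to 0.22, KHSRP to 0.27, SPPL2B to 0.0089 and LST1 to 0.0540, and ended the calls of ZC3H12C (0.15), TAB2 (0.46) and OTULIN (-0.59). At 30 reads TNFRSF1A stood at -0.00050 and ELAVL1 at -0.0311. The median log2 fold over all genes was 0.00 in the main fit and 1.24 with library size alone. It was 0.02 with intronic reads included and -0.06 at 30 reads. Beyond these shifts, the cause was not tested. In all, 27 values of named genes lost their call in the same direction and 90 kept their direction and their side of the threshold. No paired analysis was possible because there is only 1 input library, so the groups share fewer than 2 replicate numbers. Depth limits the smallest counts most, with 42 input reads in the TNF 5'UTR.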
